A study of Mus musculus with 61 samples.

Results

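Transcripts of 8 genes that export or chemically reduce doxorubicin were followed in single cells of the neonatal mouse ovary. The 8 were taken by name from a table of 23927 gene rows, and each had a row. They comprise 4 ATP-driven efflux pumps (Abcb1a, Abcb1b, Abcc1 and Abcg2) and 4 reductases (Cbr1, Cbr3, Por and Nqo1). The cells came from wild-type CD-1 mice at postnatal day 5. CD-1 is an outbred stock, and the ovary at this age holds oocytes enclosed by somatic granulosa cells. Cells were taken 6 hours after an intraperitoneal injection of solvent (control) or of doxorubicin, a DNA-damaging anti-cancer drug whose dose is written with the number 10 and a unit that is not a dose unit. There were 16 control oocytes, 16 doxorubicin oocytes, 16 control granulosa cells and 13 doxorubicin granulosa cells. No animal, litter or culture is named for any cell, so each group counts as 1 sample, and no difference given here was tested. Levels are given as CPM, the counts of a gene per 1000000 counts of all gene rows, summed over the cells of a group, and intervals are 95% intervals for counting error only, which leave out the spread between cells and animals. The libraries carry no molecular identifiers, so PCR copies of 1 molecule are counted separately.

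Efflux pumps of the ATP-binding cassette family use ATP to move drugs out through the cell membrane. Abcb1a and Abcb1b are the mouse counterparts of human ABCB1, which encodes P-glycoprotein, the classic multidrug pump for anthracyclines. Abcc1 encodes MRP1, which exports glutathione conjugates and anthracyclines, and Abcg2 encodes the breast cancer resistance protein. Doxorubicin is also altered by reductases. Cbr1 and Cbr3 encode cytosolic carbonyl reductases that use NADPH and turn a carbonyl group of anthracyclines into an alcohol, giving doxorubicinol. Por encodes cytochrome P450 oxidoreductase, which passes electrons from NADPH to P450 enzymes and haem oxygenase and can reduce the quinone of doxorubicin by a single electron, giving a semiquinone that reacts with oxygen. Nqo1 encodes NAD(P)H quinone dehydrogenase 1, a reductase that takes quinones directly to hydroquinones and is a textbook target of the transcription factor NRF2.

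Both gene pairs with a close relative lie side by side, in the RefSeq annotation of GRCm38.p6. Abcb1a (chr5:8567091-8748575) and Abcb1b (chr5:8798147-8866314) are separated by 49571 bases on chromosome 5. Cbr1 (chr16:93607837-93610349) and Cbr3 (chr16:93683219-93690991) are separated by 72869 bases on chromosome 16. Abcc1 lies at chr16:14361453-14474878, Abcg2 at chr6:58584491-58692451, Por at chr5:135670040-135735326 and Nqo1 at chr8:107388225-107403205. The 250 bases before the start of the genes of each pair are shown because the pairs differed in level or in response. They come from RefSeq (GRCm38.p6), read 5′ to 3′ on the plus strand, which carries all 4 genes. Cbr1 is chr16:93607587-93607836, Cbr3 is chr16:93682969-93683218, Abcb1a is chr5:8566841-8567090 and Abcb1b is chr5:8797897-8798146. Capitals mark every match, on either strand, to any of 8 motifs searched.
Cbr1: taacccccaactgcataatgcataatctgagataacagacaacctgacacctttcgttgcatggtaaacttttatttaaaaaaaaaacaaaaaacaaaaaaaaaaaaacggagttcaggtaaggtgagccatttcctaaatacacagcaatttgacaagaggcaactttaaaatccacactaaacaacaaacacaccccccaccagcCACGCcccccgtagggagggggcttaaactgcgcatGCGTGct
Cbr3: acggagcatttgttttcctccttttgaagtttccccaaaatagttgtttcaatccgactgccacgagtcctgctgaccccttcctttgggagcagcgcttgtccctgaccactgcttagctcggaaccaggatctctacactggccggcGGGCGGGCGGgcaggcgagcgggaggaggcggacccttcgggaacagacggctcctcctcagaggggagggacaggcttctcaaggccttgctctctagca
Abcb1a: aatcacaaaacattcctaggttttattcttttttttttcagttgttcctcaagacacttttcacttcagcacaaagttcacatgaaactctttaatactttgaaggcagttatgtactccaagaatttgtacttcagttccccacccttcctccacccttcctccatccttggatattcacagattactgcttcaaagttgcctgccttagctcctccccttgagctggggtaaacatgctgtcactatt
Abcb1b: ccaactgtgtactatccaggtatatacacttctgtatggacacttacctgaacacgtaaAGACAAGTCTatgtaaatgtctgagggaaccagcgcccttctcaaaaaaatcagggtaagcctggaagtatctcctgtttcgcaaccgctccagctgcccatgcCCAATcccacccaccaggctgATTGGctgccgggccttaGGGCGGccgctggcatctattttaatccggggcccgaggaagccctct
Each motif is given with its share of 32851 upstream windows of the same length. The antioxidant response element core TGACNNNGC matched in 10.2% of them. The aryl hydrocarbon receptor core GCGTG matched in 28.2%, and the box named CCAAT in 33.8%. The GC box, spelled GGGCGG, matched in 32.7%, and the TATA box, spelled TATAAA, in 12.4%. The p53 decamer matched in 7.13%, the E box, spelled CACGTG, in 6.02%, and the AP-1 site, spelled TGANTCA, in 6.75%. The Cbr1 window held 2 GCGTG matches, and the Cbr3 window held 2 overlapping GC boxes. The Abcb1b window held 2 CCAAT boxes, 1 GC box and 1 p53 decamer, and none of the 8 motifs matched in the Abcb1a window. A match is a description of the letters and not evidence of binding.

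Total counts per cell ranged from 6834594 to 31262609. Markers of each cell type set the labels against the data before the members are described. In every one of the 32 oocytes the summed CPM of 18 oocyte markers was above that of 19 granulosa markers. Among the cells labelled granulosa, oocyte markers were the higher sum in 5 of 16 control and 8 of 13 doxorubicin libraries, and their median sum was 1394 CPM in control against 8864 CPM in doxorubicin libraries. The granulosa marker sums had medians of 4370 and 1854 CPM, with ranges of 353 to 13728 and 799 to 10347 CPM. In doxorubicin granulosa cell 1 the sums were 42173 CPM of oocyte and 1093 CPM of granulosa markers. The marker sums of such libraries do not match their label, and the label is kept only as the name of the group. The ratios of members at 5 CPM or more are given with and without the libraries in which oocyte markers were higher. Some granulosa-labelled libraries also held stroma markers, up to 13316 CPM in controls and 7961 CPM after doxorubicin, and doxorubicin granulosa cell 15 held 33378 CPM of blood and immune markers. Among oocytes, doxorubicin oocytes 9, 11 and 12 held 3115, 2705 and 2056 CPM of granulosa markers, against at most 776 CPM in a control oocyte. The raw data of doxorubicin oocyte 4 are stated to be lost, and its column of the table was kept.

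In control oocytes the 2 best-detected pumps were Abcc1 and Abcg2, and the reductases were led by Cbr1. Per kilobase of the longest transcript, which allows genes to be ranked, the group level of Cbr1 was 83.2 CPM per kb. Por followed at 34.1, Abcc1 at 10.2, Abcg2 at 6.65, Nqo1 at 2.47, Abcb1a at 2.21, Cbr3 at 0.76 and Abcb1b at 0.19 CPM per kb. The cell ranges of Cbr1 and Por did not meet, at 58.4 to 108 and 0 to 57.9 CPM per kb, whereas the ranges of every later pair of neighbours in this order overlapped. Abcc1 exceeded Abcg2 in 10 of 16 control oocytes and Nqo1 exceeded Abcb1a in 7 of 16, so the order of these neighbours is not firm. In doxorubicin oocytes Cbr3 moved to the fourth place at 11.4 CPM per kb, next to Abcc1 at 11.7 and Abcg2 at 8.54 CPM per kb. Cbr3 exceeded Abcg2 in 8 of those 16 oocytes.

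The question of where the pumps stand before the drug was addressed by comparing control oocytes with control granulosa cells. Abcb1a was the pump that set the oocytes apart. It had a median of 9.04 CPM in control oocytes, from 0 to 30.3 CPM, and at most 0.11 CPM in a control granulosa cell. All but 1 control oocyte lay above the highest control granulosa cell, a separation of at least 15 of 16 cells that 5.03% of 12373 genes also reached. The 16 granulosa libraries held 2 Abcb1a counts in all, and the log2 ratio of oocytes over granulosa cells was 9.96 (8.10 to 13.01). At least 5 reads of Abcb1a were found in 15 of 16 control oocytes (93.8%, exact binomial interval 69.8% to 99.8%) and in 0 of 16 control granulosa cells (upper limit 20.6%), in full and in thinned libraries alike. Thinning here means drawing each cell down to 5000000 counts. Its neighbour Abcb1b was nearly silent in the oocytes: 12 of 16 controls had no count, and 96.3% of the counts came from control oocyte 5 at 14.3 CPM. Abcb1a and Abcb1b share 768 of the 4948 windows of 50 bases in the longest Abcb1a transcript, so reads from those windows could be split between them in a way the table does not show. Even so, Abcb1b counts were at 0 in 10 of the 14 control oocytes with at least 5 CPM of Abcb1a.

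Abcc1 and Abcg2 were present in both cell types. Abcc1 had a median of 65.6 CPM in control oocytes, from 0.75 to 133 CPM, and of 1.69 CPM in control granulosa cells, from 0 to 119 CPM. The groups overlapped, and the log2 ratio of group levels was 1.31 (1.26 to 1.36). Without the 3 libraries that held at least 200 CPM of endothelial markers it was 0.98. Abcg2 went the other way in group level, at 38.0 CPM in control oocytes and 80.0 CPM in control granulosa cells, a log2 ratio of -1.07 (-1.11 to -1.03). It was even among oocytes, from 15.1 to 56.1 CPM with a coefficient of variation of 36.2%, and uneven among granulosa cells, from 0 to 299 CPM with 116%. That ratio rested on a few granulosa libraries: it was -0.75 without control granulosa cell 13, -0.90 without cell 7, -0.89 without cell 16 and -0.44 without the libraries with more oocyte than granulosa markers. Cell 13 held 13316 CPM of stroma markers against 617 CPM of granulosa markers.

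The carbonyl reductases divided in the same comparison. Cbr1 stood at 103 CPM in control oocytes and 101 CPM in control granulosa cells, a log2 ratio of 0.03. The spread differed: oocytes ran from 72.3 to 134 CPM and granulosa cells from 0 to 262 CPM. Cbr3 was nearly absent from control oocytes, with 0 counts in 11 of 16 and at most 4.79 CPM, and was carried by 5 control granulosa libraries at 5.75 to 155 CPM while the other 11 had 0 counts. Its log2 ratio was -5.02 (-5.25 to -4.80), with both medians at 0. Of these 5 granulosa libraries, cells 2 and 16 held more stroma than granulosa markers. Por had group levels of 89.8 and 101 CPM, with the granulosa cells spread from 0 to 375 CPM. Nqo1 was below 5 CPM in both groups, and 89.4% of its granulosa counts were in 1 cell. Without the libraries with more oocyte than granulosa markers, the log2 ratio of Cbr3 was -3.96, that of Por -0.61 (from -0.16), that of Cbr1 0.07, that of Abcb1a 9.42 and that of Abcc1 1.01. By the rule of at least 5 CPM in either group and at least a 2-fold ratio, 4 of the 6 members measured passed, 2 in each direction, against 60.3% of 12373 genes (29% higher in oocytes and 31.3% in granulosa cells), so that number says little about these genes as a set.

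After doxorubicin, Abcb1a, Abcc1 and Abcg2 stayed close to their control levels in oocytes. Abcb1a had a median of 14.4 CPM in doxorubicin oocytes, from 0 to 32.6 CPM, against 9.04 CPM in controls. The log2 ratio of group levels was 0.19 (0.10 to 0.28), and leaving out single cells moved it between -0.02 and 0.37. Abcc1 had a median of 77.1 CPM, from 4.37 to 212 CPM, and a log2 ratio of 0.20 (0.17 to 0.23) that came to 0.00 without doxorubicin oocyte 4. Abcg2 had a median of 46.9 CPM, from 0 to 104 CPM, and a log2 ratio of 0.36 (0.32 to 0.41), between 0.23 and 0.45 over leaving out each cell. For these 3 pumps the ranges of control and doxorubicin oocytes overlapped. Abcb1b remained under 5 CPM as a group at 1.72 CPM, with at least 5 reads in 3 of 16 doxorubicin oocytes (18.8%, 4.05% to 45.6%) against 1 of 16 controls (6.25%, 0.16% to 30.2%). Those 3 cells were doxorubicin oocytes 3, 9 and 15, at 9.94, 12.9 and 6.89 CPM.

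Although its group level hardly differed, Abcb1a was more uneven among treated oocytes. It was at 0 in doxorubicin oocytes 5, 10, 11 and 12 and at 1.01 CPM in oocyte 4, whereas 1 control oocyte was at 0. The share with at least 5 reads was 75% (47.6% to 92.7%) after doxorubicin against 93.8% in controls, and 68.8% against 93.8% in thinned libraries, and these intervals overlap. The 5 low oocytes had between 133 and 289 CPM of Cdkn1a, a cell-cycle inhibitor and p53 target that reached at most 42.0 CPM in control oocytes. Doxorubicin oocytes 3 and 9, with 235 and 158 CPM of Cdkn1a, lay in the same range and had 17.6 and 22.1 CPM of Abcb1a. Over the 16 doxorubicin oocytes the Spearman rho of Abcb1a and Cdkn1a was -0.76. It was the strongest of the 5 p53 targets listed, the others being Phlda3 at -0.53, Ccng1 at -0.52, Mdm2 at -0.51 and Bbc3 at -0.29. These are a description over cells that share their group and amplification. Among the low cells, oocytes 11 and 12 also held 2705 and 2056 CPM of granulosa markers, and the part of these in the result was not tested.

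**Figure D1:**
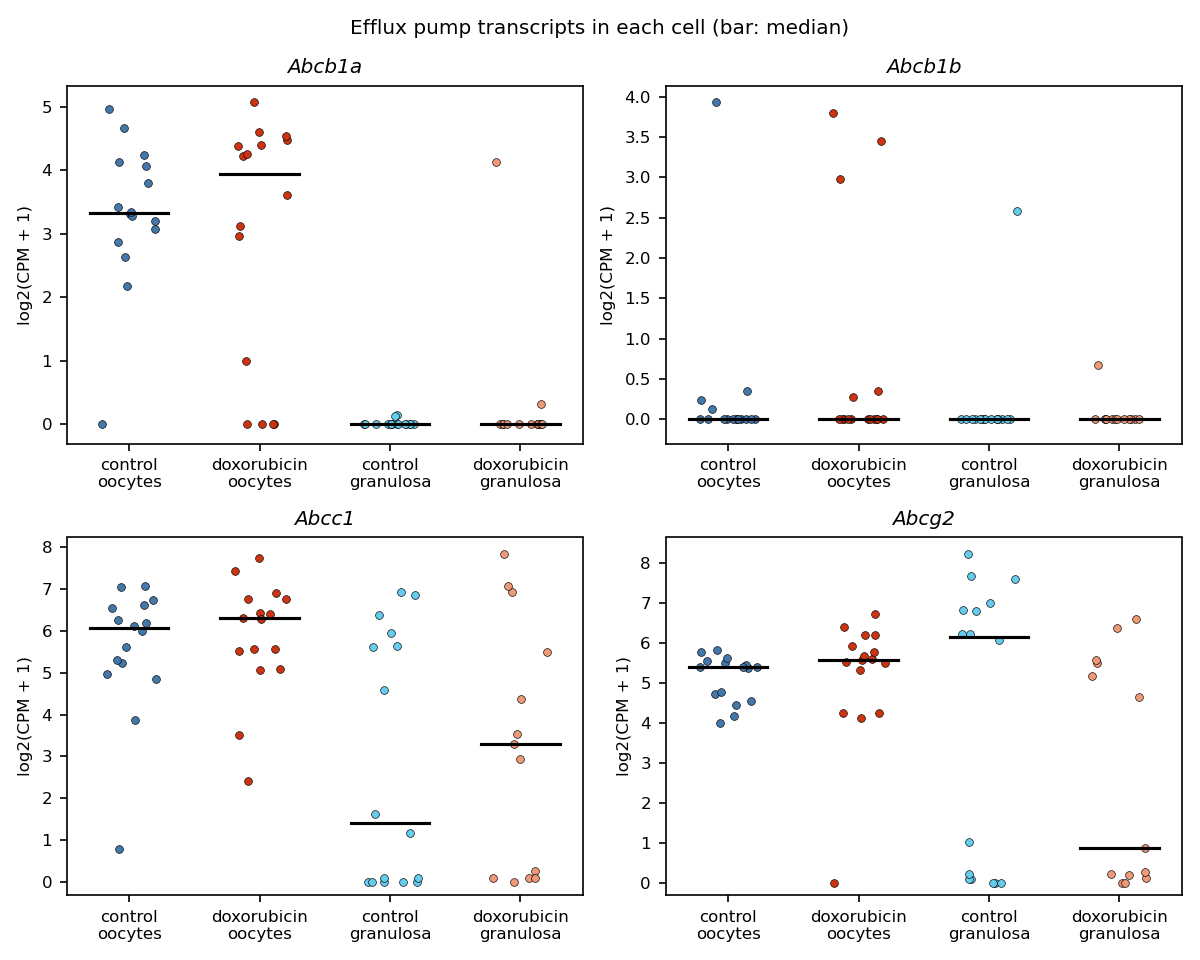
Each point is 1 cell and each bar the median of its group; the vertical axes give log2(CPM + 1) of Abcb1a, Abcb1b, Abcc1 and Abcg2. Abcb1a lies at or near 0 in all control granulosa cells and has a median of 9.04 CPM in control oocytes, and the Abcg2 values of granulosa cells spread from 0 to 299 CPM.

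Of the members at 5 CPM or more, Cbr3 had the largest ratio in oocytes after the drug. It had a median of 0 CPM in control oocytes, from 0 to 4.79 CPM, and a median of 6.12 CPM in doxorubicin oocytes, from 0 to 47.3 CPM. The groups overlapped at the low end: doxorubicin oocytes 8, 14, 15 and 16 had no Cbr3 count and oocyte 6 had 0.088 CPM. In contrast, 10 of 16 doxorubicin oocytes lay above the highest control, which 0.648% of 11119 genes did in at least as many cells. The group levels were 0.88 (0.76 to 1.03) and 13.3 (12.8 to 13.8) CPM, a 15-fold difference (log2 ratio 3.91, 3.69 to 4.14). This ratio was 3.59 without doxorubicin oocyte 4, the cell whose raw data were lost, and 4.31 without control oocyte 11. The difference of the cells' medians on the log2(CPM + 1) scale was 2.83. At least 5 reads were present in 11 of 16 doxorubicin oocytes (68.8%, 41.3% to 89.0%) and 5 of 16 controls (31.3%, 11% to 58.7%), with the same numbers in thinned libraries.

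Cbr3 was found in 5 of 16 control granulosa libraries, among them cells 2 and 16 with more stroma than granulosa markers. Granulosa markers were present in some treated oocytes, so Cbr3 and these markers are given together. Doxorubicin oocytes 9, 11 and 12, with 3115, 2705 and 2056 CPM of granulosa markers, had 13, 19.4 and 5.48 CPM of Cbr3. The 3 oocytes with the most Cbr3 were doxorubicin oocytes 4, 10 and 3, at 47.3, 44.6 and 32.9 CPM, and they held 56.4, 467 and 141 CPM of these markers. Oocyte 10 also held 472 CPM of stroma markers. With every oocyte at or above 200 CPM of granulosa markers left out, 10 control and 11 doxorubicin oocytes remained and the log2 ratio was 3.64. With those at or above 200 CPM of stroma markers also left out, 9 of each remained and it was 3.60. The whole list of 19 granulosa markers summed to a median of 84.3 CPM in control oocytes and 83.2 CPM in treated ones, and the median of 8 stroma markers was 26.4 and 37.6 CPM. In group level, however, 6 of 9 granulosa markers at 5 CPM or more were past 2-fold higher after doxorubicin and 0 lower, with a median log2 ratio of 2.0. The same held for 3 of 7 stroma markers and 2 of 2 endothelial markers, with 0 lower in either list. The part of these cells' RNA in the Cbr3 ratio was not tested beyond the values given here.

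Cbr3 counts lay mostly in the treated oocytes with high levels of p53 target transcripts. The 5 targets listed (Cdkn1a, Mdm2, Ccng1, Phlda3 and Bbc3) were all past 2-fold higher in doxorubicin oocytes, with a median log2 ratio of 2.86. Doxorubicin oocytes fell into 2 ranges of Mdm2, which encodes the ubiquitin ligase that limits p53. In 9 cells Mdm2 lay between 540 and 1898 CPM, above every control oocyte, and all 9 had at least 5 reads of Cbr3, from 3.14 to 47.3 CPM. In the other 7 cells Mdm2 lay between 75.2 and 207 CPM, and 2 of them had at least 5 reads of Cbr3: oocyte 2 at 14.4 CPM and oocyte 12 at 5.48 CPM. Within the 9 cells the Spearman rho of Cbr3 and Mdm2 was 0.88, and within the 7 it was 0.32. Over all 16 the rho with Phlda3, which encodes an inhibitor of AKT signalling, was 0.81, from 0.77 to 0.88 over leaving out each cell. For the other targets it was 0.61 with Bbc3, 0.60 with Ccng1 and 0.53 with Cdkn1a. The rho of Cbr3 with the granulosa marker sum was also 0.53 and with the total count 0.32 over the same cells. Positive values were not particular to Cbr3. Cbr1, Abcg2, Abcc1 and Nqo1 were positive with all 5 targets, and Abcb1a, Abcb1b and Por negative with all 5. With Phlda3 the rho was 0.70 for Cbr1, 0.53 for Abcg2, 0.51 for Abcc1 and 0.52 for Nqo1. Cbr1 and Cbr3 had a rho of 0.66 with each other. No background of rho over all genes was taken. These are descriptions over cells of 1 group, and the part of markers and depth in them was not tested. In the 250 bases shown above for Cbr3 no p53 decamer and no antioxidant response element core was matched, which says only that these letters are not in that window.

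**Figure D2:**
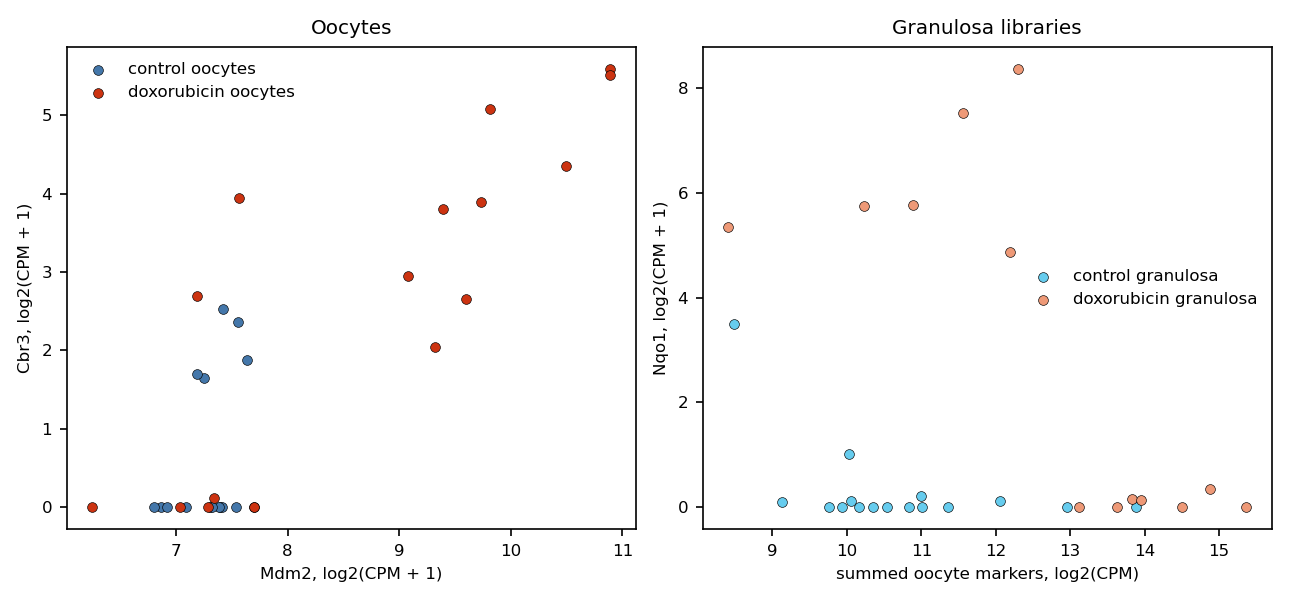
Left: log2(CPM + 1) of Cbr3 against that of Mdm2 for each oocyte; the 9 doxorubicin oocytes with Mdm2 at 540 CPM or more all have Cbr3 counts. Right: log2(CPM + 1) of Nqo1 against the log2 of the summed CPM of 18 oocyte markers for each granulosa library; the 6 doxorubicin libraries with 28.4 CPM or more of Nqo1 have marker sums of 340 to 5048 CPM.

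The gene next to Cbr3 did not share the size of its difference. Cbr1 had a median of 106 CPM in control oocytes, from 72.3 to 134 CPM, and of 115 CPM in doxorubicin oocytes, from 66.4 to 160 CPM. The groups overlapped over most of their range, and the log2 ratio was 0.18 (0.15 to 0.21), between 0.14 and 0.22 over leaving out each cell. The coefficient of variation of Cbr1 over cells was 19.3% in control and 22.6% in doxorubicin oocytes, the lowest of the 8 members in both groups. Of the other neighbours within 100 kb with a row above 5 CPM, Setd4 had a log2 ratio of 0.01 and Dop1b of 0.42. The longest transcripts of Cbr1 and Cbr3 have 1 shared window of 50 bases among 1188 and 1121, so few reads could be assigned to the wrong gene of this pair.

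Por was level and Nqo1 low in oocytes. Por had a median of 86.8 CPM in control oocytes, from 0 to 153 CPM, and of 92.5 CPM in doxorubicin oocytes, from 4.72 to 172 CPM, which gave a log2 ratio of 0.01 (-0.02 to 0.04). Nqo1 reached at most 15.5 CPM in a control and 16.6 CPM in a doxorubicin oocyte, with at least 5 reads in 10 and 11 of 16 cells. Its log2 ratio of group levels was 0.58 (0.44 to 0.72), but the medians went the other way, at 4.27 CPM in controls and 3.16 CPM after doxorubicin. Without oocytes at or above 200 CPM of granulosa or stroma markers the ratio was 1.06. Of the 7 members at 5 CPM or more, Cbr3 alone passed 2-fold in oocytes, against 8.75% of 11119 genes (6.3% higher and 2.45% lower after doxorubicin), so the number of members passing is near the background.

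**Figure D3:**
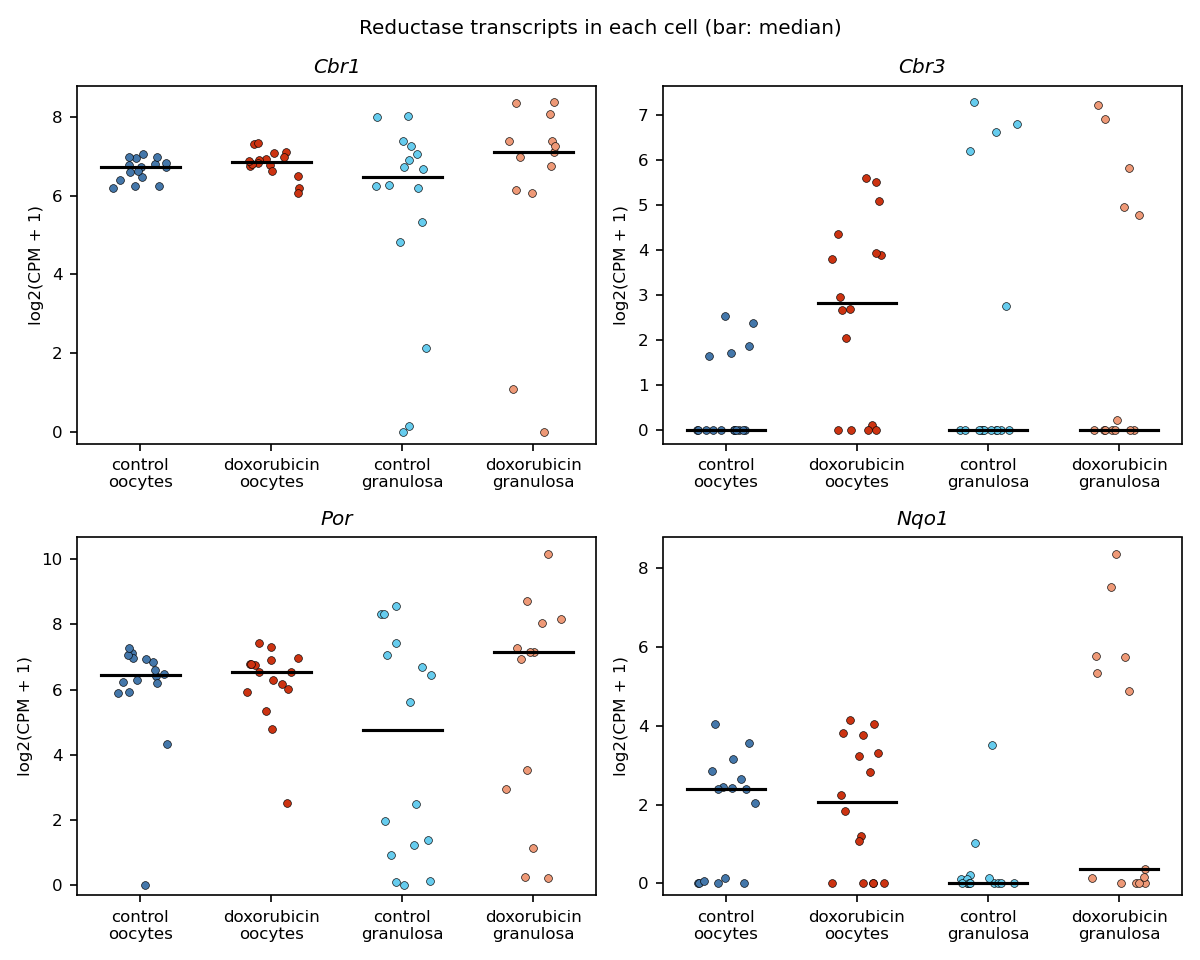
Each point is 1 cell and each bar the median of its group; the vertical axes give log2(CPM + 1) of Cbr1, Cbr3, Por and Nqo1. The median of Cbr3 is 0 in control oocytes and 6.12 CPM in treated ones, and Nqo1 is found at 28.4 to 329 CPM in 6 doxorubicin granulosa cells.

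In granulosa-labelled cells Nqo1 and Abcg2 passed 2-fold after doxorubicin, in opposite directions. Nqo1 was the higher after the drug. In controls it had a median of 0 CPM and a highest value of 10.3 CPM, in control granulosa cell 5, and the next highest was 1.01 CPM. After doxorubicin, 6 of 13 cells had values of 329, 184, 53.4, 52.9, 39.7 and 28.4 CPM, and the remaining 7 had at most 0.28 CPM. All 6 lay above the highest control, which 1.29% of 12194 genes did in at least as many cells. The group levels were 0.73 (0.61 to 0.87) and 54.2 (53 to 55.4) CPM, a log2 ratio of 6.21 (5.96 to 6.46). It was 5.43 without doxorubicin granulosa cell 2, which held 45.8% of the counts, and 9.35 without control granulosa cell 5. The difference of medians on the log2(CPM + 1) scale was 0.35, since most of the 13 cells lacked the transcript. At least 5 reads were found in 46.2% (19.2% to 74.9%) of doxorubicin cells and 12.5% (1.55% to 38.3%) of controls, and in 46.2% and 6.25% when thinned.

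The Nqo1-bearing cells were those with the least oocyte RNA. Their oocyte marker sums ran from 340 to 5048 CPM, and those of the 7 cells without at least 5 reads of Nqo1 from 8864 to 42173 CPM. Of the 16 control granulosa cells, 14 also had oocyte marker sums of at most 5048 CPM, and these had between 0 and 10.3 CPM of Nqo1. Granulosa marker sums in the 6 cells were 1637 to 10347 CPM and in the 7 cells 799 to 7530 CPM. The 6 cells differed in other markers too: cell 13 held 7961 CPM of stroma markers, cell 15 held 33378 CPM of blood and immune markers, and cells 14 and 16 held 7995 and 9556 CPM of granulosa markers with 316 and 0.37 CPM of stroma markers. With the libraries in which oocyte markers were higher left out, 11 control and 5 doxorubicin cells remained and the log2 ratio was 6.11. In oocytes Nqo1 never exceeded 16.6 CPM.

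Abcg2 was the member past 2-fold lower in doxorubicin granulosa cells. Its median was 70.0 CPM in controls, from 0 to 299 CPM, and 0.83 CPM after doxorubicin, from 0 to 95.8 CPM. The log2 ratio of group levels was -1.68 (-1.73 to -1.63), between -2.08 and -1.36 over leaving out each cell, and -1.60 without the libraries with more oocyte than granulosa markers. The share of cells with at least 5 reads was 62.5% (35.4% to 84.8%) in controls and 53.8% (25.1% to 80.8%) after doxorubicin, so the groups overlapped in detection as well as in range. Stroma markers were lower too: 4 of 8 were past 2-fold lower after doxorubicin and 0 higher, with a median log2 ratio of -1.42. Their summed level, highest in the control cell with the most Abcg2, had medians of 815 CPM in control and 688 CPM in doxorubicin cells, and their part in the result was not tested. In oocytes the log2 ratio of the same gene was 0.36, on the other side of 0, and the difference between the cell types was not tested.

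Among the remaining members, the ratios of Abcc1, Por and Cbr3 moved with single libraries. Abcc1 had a log2 ratio of 0.64 (0.59 to 0.69) that was 0.05 without doxorubicin granulosa cell 16, at 226 CPM, 0.34 without doxorubicin granulosa cell 13 and 1.08 without control granulosa cell 10. Without the libraries with more oocyte than granulosa markers it was 1.14. Por had a log2 ratio of 0.96 (0.93 to 0.99), of which doxorubicin granulosa cell 1 supplied 39.2% of the treated counts at 1139 CPM. Without that cell it was 0.34, and without the libraries with more oocyte than granulosa markers it was -0.32. The cell medians of Por lay further apart than the group levels, at 26.1 CPM in controls and 142 CPM after doxorubicin, a difference of 3.11 on the log2(CPM + 1) scale. Cell 1 had the highest oocyte marker sum of the group, 42173 CPM, and its part in the result was not tested. Cbr1 had group levels of 101 and 147 CPM, a log2 ratio of 0.55 (0.52 to 0.58), which kept its direction over leaving out each cell (0.38 to 0.71) and was 0.30 without the libraries with more oocyte than granulosa markers. Cbr3 had 28.7 and 30.0 CPM, a log2 ratio of 0.06 (0.01 to 0.12), and both medians were 0. That ratio changed sign over leaving out each cell (-0.57 to 0.67). It became 0.63 without the libraries with more oocyte than granulosa markers. Cbr3 was found at 26.3 to 148 CPM in 5 doxorubicin cells, and 4 of these 5 also carried Nqo1. Abcb1a had 1.08 CPM after doxorubicin, with 98.1% of the counts in cell 10 at 16.5 CPM, a library with 14515 CPM of oocyte markers. Abcb1b had 64 counts in controls, all in cell 16, and 7 counts after doxorubicin. Among the 6 members at 5 CPM or more, Nqo1 was past 2-fold upwards and Abcg2 downwards, against 40.6% of 12194 genes (20.6% higher and 20% lower), so this number too is near the background.

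**Figure D4:**
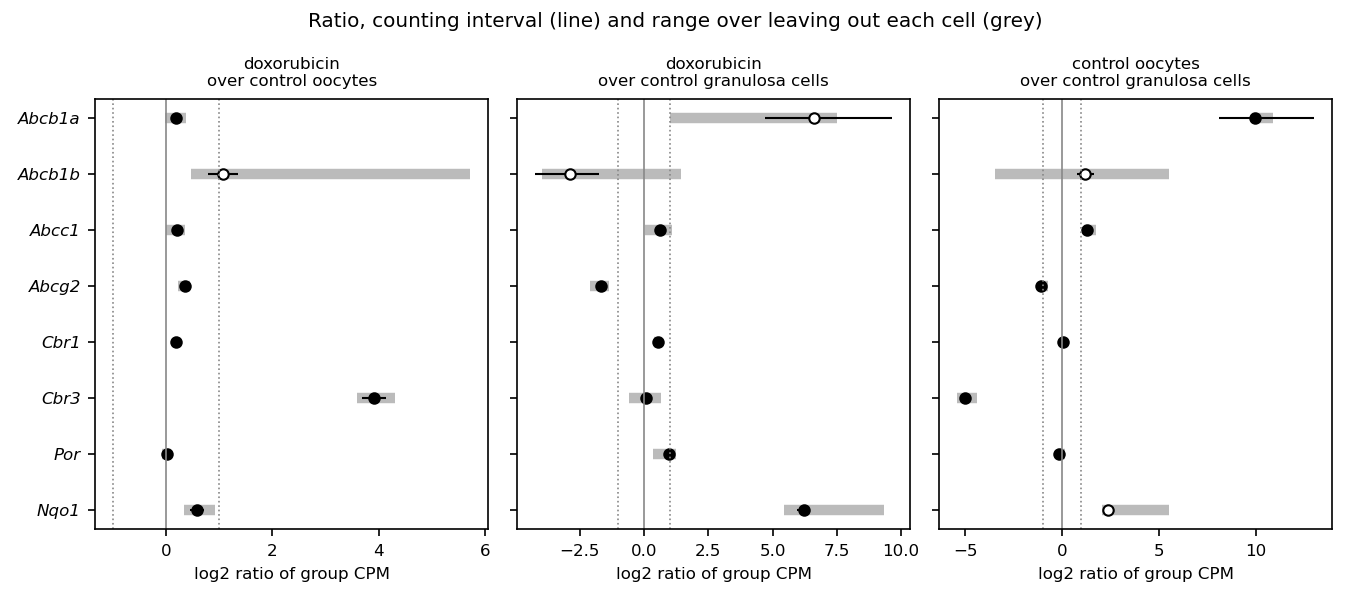
Log2 ratios of group CPM for the 8 members in 3 comparisons; thin lines are 95% counting intervals, grey bands the range over leaving out each cell, open points members under 5 CPM in both groups, and dotted lines 2-fold. Cbr3 at 3.91 in oocytes and Nqo1 at 6.21 in granulosa cells lie far from 0, and the bands of Abcb1b are wide.

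The members were not found together in every cell. The median number of the 8 with at least 5 reads was 6 in control and in doxorubicin oocytes, 3.5 in control granulosa cells (3 when thinned) and 4 in doxorubicin granulosa cells. The summed level of the 4 reductases had medians of 196 and 233 CPM in control and doxorubicin oocytes, and that of the 4 pumps 99.8 and 134 CPM. In granulosa cells the reductase sum had medians of 225 and 354 CPM, and the pump sum 96.9 and 24.9 CPM. All these cell ranges overlapped between control and doxorubicin. Over 32 oocytes the genes whose log2(CPM + 1) followed a member most closely among 10327 genes were Psmb4 for Abcb1a (Spearman rho 0.66), Polr3b for Abcc1 (0.74), Insrr for Abcg2 (0.69), 4930550C14Rik for Cbr1 (0.74) and Pwwp3b for Por (0.59). The next closest were Lurap1l (0.61) and Spata5 (0.59) for Abcb1a, Gle1 (0.69) and Pgs1 (0.66) for Abcc1, Spata21 (0.69) and Gtse1 (0.66) for Abcg2, Abhd14a (0.67) and Ppt1 (0.67) for Cbr1, and Arl8b (0.59) and Leprotl1 (0.58) for Por. These partners were picked as the highest of 10327 genes over 32 cells, with no background for such maxima, so they are a description only. The cells share their amplification chemistry and mix both treatments.

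Other genes that handle the drug were read from lists of the same pathways. Their counts past 2-fold stand against shares of all genes of 6.3% higher and 2.45% lower in oocytes after doxorubicin, 20.6% and 20% in granulosa-labelled cells after doxorubicin, and 29% higher in oocytes and 31.3% higher in granulosa cells between the control groups. Of 10 other drug efflux pumps at 5 CPM or more in oocytes, 1 was past 2-fold upwards after doxorubicin and 0 downwards, with a median log2 ratio of -0.11 against 0.01 for all genes. The former was Abcb10, a mitochondrial transporter, at 6.94 CPM in control oocytes and 19.4 CPM in treated ones, a log2 ratio of 1.48 (1.39 to 1.57). Mvp, which encodes the major vault protein, was the highest of this list in control oocytes at 595 CPM and had 580 CPM after doxorubicin. Abca2, a lipid transporter of the endolysosome and the next highest, had 188 and 121 CPM. Of 10 such pumps, 9 were past 2-fold higher in the oocytes of solvent-treated mice than in their granulosa cells and 0 lower, with a median log2 ratio of 3.30 against -0.03 for all genes. Among them Abca2, Abcc4 (MRP4) and Abcc10 had log2 ratios of 12.05 (11.07 to 13.26), 9.26 (8.03 to 10.88) and 8.76 (7.63 to 10.20). After doxorubicin, granulosa-labelled cells had 3 of 7 of these pumps past 2-fold upwards and 1 downwards. Among them were Mvp, at 6.92 and 236 CPM, and Abcc5 (MRP5), at 21.8 and 95.7 CPM. In oocytes Mvp had 595 CPM in controls and 580 CPM after doxorubicin, and Abcc5 had 61.7 and 40.1 CPM. At least 5 reads of Abcc5 were also found in 10 of 16 control granulosa cells, and of Mvp in 4. In doxorubicin granulosa-labelled cells 16 of 16 oocyte markers at 5 CPM or more were past 2-fold higher. The part of oocyte RNA in the Mvp and Abcc5 values was not tested.

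Of the uptake carriers, 2 reached 5 CPM in oocytes. Slco3a1, an organic anion transporter, had 3.39 CPM in control oocytes and 14.4 CPM in treated ones, a log2 ratio of 2.09 that ranged from 1.10 to 2.71 over leaving out each cell. Its cell medians were 0.19 and 1.79 CPM, and 3 of 16 treated oocytes lay above the highest control. Control granulosa cells had 103 CPM of Slco3a1, and the part of granulosa RNA in its oocyte ratio was not tested. Slc22a5, a carnitine transporter, had 22.1 and 11.7 CPM. Of 11 other carbonyl and aldo-keto reductases in oocytes, 3 were past 2-fold upwards and 0 downwards, with a median log2 ratio of 0.38. The largest ratio was that of Cbr2, a carbonyl reductase related to Dcxr, which lies outside the rule for named genes and was picked out after its values were seen. It had 2 counts over the 16 control oocytes and 54.7 CPM in the doxorubicin oocytes, a log2 ratio of 12.39 (10.53 to 15.43), between 11.76 and 13.30 over leaving out each cell. At least 5 reads were found in 7 of 16 doxorubicin oocytes, at 302, 276, 185, 35.4, 8.88, 7.96 and 4.06 CPM in oocytes 4, 3, 10, 5, 7, 6 and 13. Oocytes 4, 3 and 10, the highest in Cbr2, were also the 3 highest in Cbr3. Oocytes 9, 11 and 12, which held the most granulosa markers, had at most 1 count of Cbr2 each. With every oocyte at or above 200 CPM of granulosa or stroma markers left out, the 9 doxorubicin oocytes held 7221 counts of Cbr2 and the 9 controls 1. The case named by the rule is Akr1b8, an aldo-keto reductase, at 3.49 and 10.5 CPM, a log2 ratio of 1.59 (1.46 to 1.71). Between the control cell types its log2 ratio, oocytes over granulosa cells, was -5.50, and it reached 732 CPM in a single control granulosa cell. The granulosa marker sums of oocytes are those given for Cbr3, and their part in the Akr1b8 ratio was not tested. The most abundant of this list in oocytes were Akr1a1, at 1003 and 1007 CPM, and Akr1b3, at 350 and 390 CPM. In doxorubicin granulosa-labelled cells 2 of 12 were past 2-fold upwards and 2 downwards. Dcxr, the dicarbonyl and L-xylulose reductase, had 19.2 CPM in control and 147 CPM in doxorubicin granulosa cells, and 70.5 CPM in control oocytes. Cbr4, a mitochondrial carbonyl reductase, had 46.1 and 19.7 CPM.

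Enzymes that pass single electrons or reduce quinones were mostly level in oocytes. Of 16, 1 was past 2-fold upwards and 1 downwards, with a median log2 ratio of 0.01. Fdxr, the mitochondrial ferredoxin reductase and a p53 target, had 7.86 CPM in control oocytes and 17.4 CPM in treated ones, a log2 ratio of 1.15 (1.06 to 1.23). Control granulosa cells had 63.0 CPM of Fdxr, and the part of granulosa RNA in its oocyte ratio was not tested. The complex I subunit Ndufv1, the highest of this list, had 756 CPM in control oocytes and 767 CPM in treated ones. In granulosa-labelled cells 4 of 16 were past 2-fold upwards and 2 downwards after doxorubicin. They included Txnrd1, thioredoxin reductase 1 and an NRF2 target like Nqo1, at 143 and 305 CPM, and Ndufs1, a complex I subunit, at 172 and 55.3 CPM. Nqo2, a relative of Nqo1 with another cofactor, had a log2 ratio of -2.76 between control oocytes and control granulosa cells.

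Among genes whose products take electrons from the Por protein, Hmox1 was higher in oocytes after doxorubicin. Of 9 such genes, 1 was past 2-fold upwards and 1 downwards, with a median log2 ratio of 0.03. Hmox1, haem oxygenase 1, had a median of 15.4 CPM in control oocytes, from 0 to 35.4 CPM, and of 40.9 CPM in doxorubicin oocytes, from 7.32 to 281 CPM. Its group levels were 15.1 and 68.5 CPM, a log2 ratio of 2.18 (2.12 to 2.24), between 1.78 and 2.30 over leaving out each cell. Cyp39a1, a sterol hydroxylase, was lower at 7.25 and 3.49 CPM. Hmox2 and Cyb5a, the most abundant acceptors in control oocytes, had 154 and 192 CPM in controls and 167 and 289 CPM after doxorubicin. Control granulosa cells had 109 CPM of Hmox1 and 720 CPM of Cyb5a. The part of granulosa RNA in the oocyte ratios of Hmox1 and Cyb5a was not tested.

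Of 10 regulators in oocytes, 0 were past 2-fold upwards and 1 downwards. That gene was Ahr, the aryl hydrocarbon receptor, at 23.6 CPM in control oocytes and 10.1 CPM in treated ones, a log2 ratio of -1.23 (-1.31 to -1.15). Nfe2l2, which encodes NRF2, stood at 19.7 CPM in control oocytes and 353 CPM in control granulosa cells, a log2 ratio of -4.16, and at 33.4 and 428 CPM after doxorubicin. Keap1, the adaptor that targets NRF2 for degradation, had 65.4 CPM in control and 12.8 CPM in doxorubicin granulosa-labelled cells. Bach1, a repressor of NRF2 target genes, had 24.5 and 3.15 CPM there. Keap1 and Bach1 were each found with at least 5 reads in 8 of 16 control and 3 of 13 doxorubicin granulosa cells, so their levels rested on few cells.

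Between the control groups the lists differed in direction. Of 11 other carbonyl and aldo-keto reductases, 1 was past 2-fold higher in control oocytes and 6 in control granulosa cells, with a median log2 ratio of -1.28. Akr1c14, a hydroxysteroid dehydrogenase, had 7.44 CPM in control oocytes and 450 CPM in control granulosa cells. Dhrs4, a short-chain carbonyl reductase, had 10.6 and 66.3 CPM. The single-electron and quinone reductases were balanced, with 5 of 16 higher in each cell type. Nos1, a nitric oxide synthase with a reductase domain like that of Por, had 230 CPM in control oocytes and 7.53 CPM in control granulosa cells, and Ndor1, another flavoprotein reductase, had 70.2 and 9.95 CPM. Of 14 electron acceptors of Por, 2 were past 2-fold higher in oocytes and 7 in granulosa cells. Cyb5a, cytochrome b5, had 192 and 720 CPM, and Hmox1 had 15.1 and 109 CPM. Among 10 regulators, 1 was higher in oocytes (Ahr, at 23.6 and 2.95 CPM) and 4 in granulosa cells, including Mafk, a partner of NRF2, at 10.2 and 74.8 CPM.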

How the data were processed

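Per the labels' protocols, mRNA of each lysed cell was reverse transcribed, pre-amplified and indexed with a low-input kit. The deposited table gives the authors' estimated counts for every gene in every cell, and 32.5% of its values above 0 are fractional. Partek, Bowtie2, HISAT2, DESeq2 and the build mm10 are named in the submitters' processing notes, without versions; the counting tool and annotation are not given in the sources used here. All 61 cell columns were matched to a sample by name. Rows whose symbols had become dates (22 rows, 0.144% of counts) stayed in the totals and were not named.

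Estimated counts were rounded, summed per group and divided by the summed totals. Ratios of group CPM carry exact conditional binomial (Clopper-Pearson) 95% intervals and levels exact Poisson intervals, and a group with 0 counts was set to 3 counts over the group. No test was possible with 1 sample a group. A gene was counted as past 2-fold with at least 5 CPM in either group and a log2 ratio of at least 1 in size; no strandedness is stated, so reads of overlapping genes cannot be told apart. No 2 cells were near-identical: the smallest chi-square per degree of freedom was 56.7. Lengths came from GENCODE M21 transcripts, and positions and upstream windows from RefSeq GRCm38.p6, which held windows for 7 of the 8 members.

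The members and lists were chosen with earlier results of these data known, and the list of surface epithelium markers was added after the data were seen. Besides the 8 members, each list gave up to 3 genes a comparison with at least 5 CPM, at least 5 reads in at least 50% of the cells of the higher group and a 2-fold ratio, ranked by their smallest ratio over leaving out each cell, and its 2 highest genes in control oocytes. Of these, the text gives a selection, and 1 gene is not reported here. The calculation was tested on simulated data. Alternatives were the mean and the median of cells, edgeR TMM and DESeq2 size factors, other filters, a 1.5-fold limit, thinning, leaving out cells by markers and leaving out each cell. Software was scipy 1.17.1, pandas 2.3.3, numpy 2.4.6 and matplotlib 3.10.9 under Python 3.11.15, and DESeq2 1.42.0 and edgeR 4.0.16 under R 4.3.3.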

Additional observations from a re-analysis of the deposited data

Results flagged for a closer look

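For 9 of the genes named, the drug-to-control ratio lay above 0 in one cell type and below 0 in the other, with the counting interval and every value from leaving out single cells on the same side. The difference itself was not tested in any of them, and the granulosa-labelled groups differ in oocyte marker content. Values are log2 ratios in oocytes minus those in granulosa-labelled cells. Among the members it was Abcg2, the breast cancer resistance protein, with a difference of 2.04 (0.36 in oocytes and -1.68 in granulosa-labelled cells). Higher in oocytes and lower in granulosa-labelled cells were also Akr1b8 (difference 2.89), Ndufs1 (2.0), Cbr4 (1.61) and Cyb5a (0.76). The opposite held for Abca2 (difference -9.53), Slc22a5 (-2.82), Abcc5 (-2.75) and Nos1 (-1.76). In solvent-treated mice all 4 of the latter stood higher in oocytes. Abcg2, Akr1b8, Ndufs1, Cbr4 and Cyb5a stood higher in control granulosa cells. Their log2 ratios of control oocytes over control granulosa cells were -1.07, -5.50, -0.23, -1.28 and -1.91. In treated oocytes 6 of 9 granulosa markers were past 2-fold higher. The part of RNA from the other cell type in these 9 genes was not tested. Some granulosa ratios of Abca2, Slc22a5, Abcc5 and Nos1 rested on few libraries. At least 5 reads of Abca2 were found in 0 of 16 control and 4 of 13 doxorubicin granulosa-labelled cells. For Slc22a5 these numbers were 3 and 4, for Nos1 5 and 6, and for Abcc5 10 and 9.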

How the results depend on the processing

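The number of members past 2-fold in oocytes was 1 (Cbr3) and lay between 1 and 1 over leaving out each cell. It was 2 with a filter of 1 CPM or with none, where Abcb1b joined, and 0 with a filter of 20 CPM, which Cbr3 did not reach. It was 2 (with Nqo1) without oocytes holding 200 CPM or more of granulosa or stroma markers, an alternative chosen after seeing the data. In granulosa cells it was 2, between 2 and 3 over leaving out each cell, 4 with no filter and 4 at 1.5-fold. Between control cell types it was 4, between 3 and 4 over leaving out each cell, and between 3 and 6 over 13 other alternatives. The ratio of Cbr3 in oocytes ranged from 2.83 to 3.91 over 8 alternatives and that of Nqo1 in granulosa cells from 0.35, for the difference of medians, to 6.22 over 7. By the difference of medians Cbr3 came to 0 and Abcb1a to 3.33 between control cell types, and Abcg2 to -5.27 in granulosa cells. No paired analysis was possible because each group is 1 sample of single cells and no animal links cells that share a number.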
